A study of Mus musculus with 29 samples.

Results

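Acute-phase genes encode secreted proteins whose blood levels rise in inflammation, and 8 of them were followed in mouse colon: Saa1, Saa2, Saa3, Lrg1, Hp, Orm1, Ptx3 and Lbp. They were taken by symbol from the 54532 genes of a table of RNA-seq counts, in which all 8 were present, and all 8 passed a minimum mean count of 3 over the 29 mice. Each of 6 colitis models was compared with its own control group. Levels are given as CPM, that is a gene's counts for every 1e6 counts of the TMM-scaled library size, and a gene was called higher or lower where its adjusted p from edgeR's quasi-likelihood test (Benjamini-Hochberg over 18616 genes) was below 0.05.

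In an acute phase response, the cytokines IL-6, IL-1 and TNF reach the liver through the blood, and signalling through STAT3, NF-κB and C/EBP factors switches hepatocytes to secrete defence and transport proteins. Many of the same genes can be switched on locally, in epithelium, macrophages, fibroblasts, neutrophils or fat, and IL-22 and oncostatin M use the same STAT3 route in the gut wall. Serum amyloid A proteins travel on high-density lipoprotein and act on bacteria and phagocytes, Lrg1 is a leucine-rich glycoprotein that modulates TGF-β signalling in vessels, Hp (haptoglobin) captures free haemoglobin, Orm1 (orosomucoid) binds drugs and lipids, Ptx3 is a long pentraxin that opsonises microbes, and Lbp hands bacterial lipopolysaccharide to CD14.

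The WT control mice (n = 3) were untreated Balb/C mice, and they served as controls for DSS, DNBS and IL-10 deficiency, all Balb/C by their labels. DSS mice (n = 3) drank 3% dextran sulfate sodium for 5 days and were culled at day 10. DNBS mice (n = 3) received 3 mg dinitrobenzene sulfonic acid rectally in 200 µl of 50% ethanol. IL-10 deficiency (n = 4) is labelled as treatment with an IL-10 blocking antibody, with 750 µg of antibody to the IL-10 receptor named in the protocol and culling after 4 weeks. The Rag1-/- control (n = 3, untreated), TCT (n = 3) and anti-CD40 mice (n = 3) are labelled C57BL/6 Rag1-/-, a genotype without mature T and B cells. TCT mice received 500000 naive CD4+ T cells and were culled after 6 to 8 weeks, and anti-CD40 mice received 50 µg of the agonistic antibody and were culled at day 7. The Rag2-/- control (n = 3) and TRUC mice (n = 4) were untreated Balb/C animals that share loss of Rag2, and TRUC mice are also labelled Tbx21-/-, a model in which colitis arises spontaneously. The treatment text of the labels names Rag2-/- recipients for the T cell transfer, in conflict with the genotype label of the TCT mice. The study's methods differ from the labels in the strain of the wild-type and DSS mice and describe Il10-/- animals rather than antibody treatment. They also give earlier culling times for DSS and TCT mice. Ages of these mice are not stated in the labels, though TRUC mouse 4 carries the identifier TRUC_8W, whose meaning is not explained.

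Total counts per mouse ran from 10725564 to 14977094, and a count of 0 allows up to 3 counts, or 0.179 to 0.314 CPM. Colonocyte markers were abundant in all 29 libraries, with a summed level of 6112.5 to 21665.3 CPM over 9 genes. Counts of Rag1, Rag2 and Tbx21 did not all follow the genotype labels. Rag2 counts were 15 to 25 in the Rag2-/- control and 57 to 94 in TRUC libraries, but also 6 to 20 in the libraries labelled Rag1-/- control and 48 to 99 in those labelled anti-CD40, against 0 in TCT. Rag1 counts were 20 to 33 in TCT and at most 4 in the libraries labelled Rag1-/- control. In IL-10 deficiency, labelled as antibody treatment, Il10 counts were 61 to 111, against 1 to 4 in WT control. Tbx21 counts were 26 to 52 in the libraries labelled Tbx21-/- (TRUC) and 1 to 7 in the Rag2-/- control. TRUC is therefore the name of libraries by their label. Results for TCT and anti-CD40 likewise refer to libraries by their labels, and are also given against another untreated group where that changed a call.

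Saa1, Saa2 and Saa3 lie side by side on mouse chromosome 7, at chr7:46740497-46742980 (minus strand), chr7:46751790-46754313 (plus strand) and chr7:46711998-46715700 (minus strand), GENCODE M21 on GRCm38. Saa1 and Saa2 are near-identical copies. Of the 50-base windows along all their annotated transcripts, 31.5% of those of Saa1 and 30% of those of Saa2 occur in the other gene or elsewhere. Along protein-coding transcripts alone the shares are 14.8% and 11.8%. Reads can therefore be split wrongly between them. The sequences before their starts are shown because the pair is so alike upstream and so different in level. These runs are RefSeq promoter sequence of GRCm38.p6, written 5′ to 3′. Each run ends before the more upstream of the RefSeq and GENCODE starts, which shortened the Saa2 run to 207 bases and the Saa3 run to 226. Capitals mark matches to TTNNGNAA, a C/EBP-type motif searched on both strands that 36.9% of 32841 mouse promoter windows of 250 bases also hold.
Saa1 (chr7:46742981-46743230, minus strand): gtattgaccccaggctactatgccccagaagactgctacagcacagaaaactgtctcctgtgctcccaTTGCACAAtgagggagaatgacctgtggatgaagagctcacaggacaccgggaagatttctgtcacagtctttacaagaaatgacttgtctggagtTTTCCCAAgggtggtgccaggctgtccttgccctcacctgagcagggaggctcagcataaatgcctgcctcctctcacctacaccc
Saa2 (chr7:46751583-46751789, plus strand): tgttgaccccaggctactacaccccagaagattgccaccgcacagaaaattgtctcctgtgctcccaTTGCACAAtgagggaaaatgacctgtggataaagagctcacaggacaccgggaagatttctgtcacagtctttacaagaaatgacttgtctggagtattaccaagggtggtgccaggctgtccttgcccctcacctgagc
Saa3 (chr7:46715701-46715926, minus strand): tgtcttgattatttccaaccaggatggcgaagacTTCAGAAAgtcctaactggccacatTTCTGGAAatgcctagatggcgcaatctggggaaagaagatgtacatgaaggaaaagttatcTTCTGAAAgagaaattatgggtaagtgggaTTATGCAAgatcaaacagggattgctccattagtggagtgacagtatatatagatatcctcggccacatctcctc
The Saa1 and Saa2 runs were identical at 195 of 206 aligned bases (94.7%). Both held the match TTGCACAA, which in Saa1 began 182 bases before the end of the run and in Saa2 140. These positions are not comparable, since the Saa2 run was cut short at its downstream end. A further match, TTTCCCAA, was found in the Saa1 run only, 86 bases before the start. The Saa3 run held 4 matches. No match to the STAT motif TTCNNNGAA (held by 7.02% of windows) or to the NF-κB motif (7.25%) was found in these runs. Promoter sequence was matched for 5 of the 8 genes.

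The other genes lie apart. Lrg1 is at chr17:56119678-56122001 (minus strand), Hp at chr8:109575128-109579172 (minus strand), Orm1 at chr4:63344560-63348163 (plus strand), Ptx3 at chr3:66219910-66225805 (plus strand) and Lbp at chr2:158306493-158332852 (plus strand). Orm1 shares 20.4% of its 50-base windows with its copy Orm2, so its counts are uncertain, whereas Lrg1, Hp and Ptx3 share none.

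Saa3 and Lrg1 were higher in all 6 colitis models, and no other member was. Of all genes tested, 1.07% were higher in all 6. DSS raised 7 of the 8 genes (all but Orm1; 17.7% of all genes were higher), IL-10 deficiency 6 (all but Orm1 and Ptx3; 27.2%), TRUC 5 (Saa2, Saa3, Lrg1, Hp and Lbp; 22.4%), anti-CD40 4 (Saa2, Saa3, Lrg1 and Lbp; 10.9%), TCT 3 (Saa3, Lrg1 and Hp; 16.1%) and DNBS 3 (the same trio; 3.95%). Falls were seen for Orm1 in TRUC (23.4% of all genes were lower) and anti-CD40 (10.7%), and for Saa2 in TCT (14%). Saa2 was thus higher in some models and lower in another, as were 7.15% of all genes. The median log2 fold change of the 8 genes was 3.98 in DSS, 3.08 in IL-10 deficiency, 2.29 in TRUC, 1.41 in DNBS, 1.17 in anti-CD40 and 1.09 in TCT, beside medians over all genes between -0.03 and 0.02.

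Every mouse of the model stood above every control mouse for 7 members in DSS (25.9% of all genes did so) and 7 in IL-10 deficiency (27.6%). The same held for 6 members in anti-CD40 (19.2%), 5 in TRUC (28.8%), 4 in DNBS (15.6%) and 3 in TCT (21.4%). All TCT mice lay below all controls for Saa1 and Saa2 (21.7% of all genes did so), and all anti-CD40 mice for Orm1 (20.4%). These are bulk tissue levels, in which more cells of a type and more RNA per cell cannot be told apart.

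**Figure D1:**
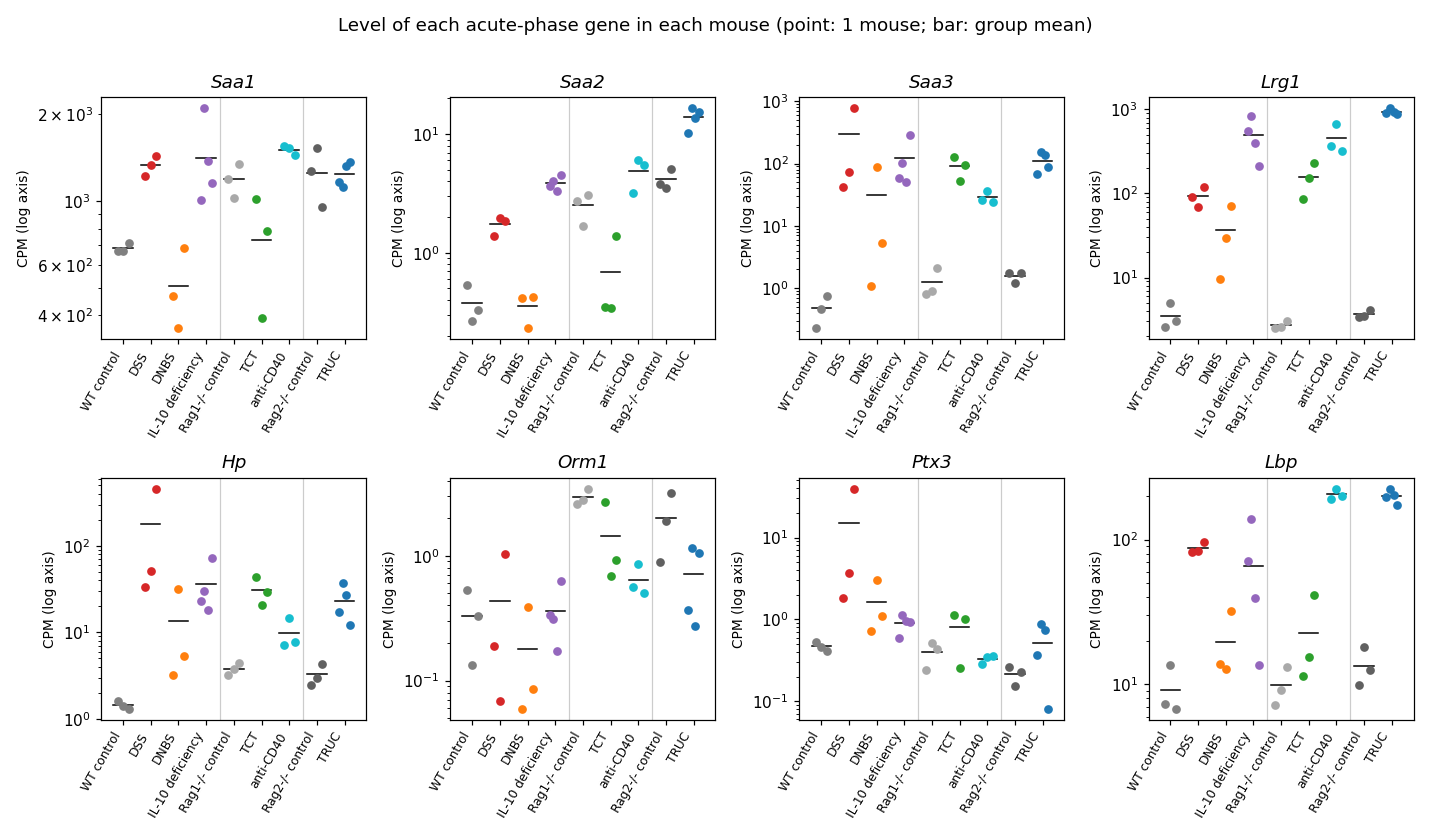
Level of each of the 8 genes in each mouse, in CPM on a log axis with a range of its own in each panel, grouped so that each control stands left of its models. Saa1 lay between 362 and 2103 CPM in every mouse, controls included, whereas Saa3 and Lrg1 rose from a few CPM or less in the controls.

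Saa1 was by far the most abundant member in healthy colon. Per kilobase of transcript its level in WT control mice was 1124.8 CPM, against 3.65 for Lbp, 2.50 for Lrg1, 0.577 for Saa2 and 0.217 for Saa3. The WT control mice had 670.3, 668 and 717 CPM of Saa1. In DSS the level was 1222, 1336 and 1435 CPM, all above the controls (1.94-fold, log2 fold change 0.96 ± 0.27 SE, adjusted p = 0.00835, edgeR). IL-10 deficiency mice had 1008, 2103, 1373 and 1153 CPM, again all above (2.06-fold, 1.04 ± 0.26, adjusted p = 0.00175). These were the smallest called rises among the members in both models.

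The direction was not shared. DNBS mice had 469, 362 and 688 CPM of Saa1, overlapping the controls (log2 fold change -0.44, 95% interval -0.99 to 0.12, adjusted p = 0.325). TCT mice had 1015, 391 and 784 CPM, all below the 1194, 1024 and 1348 CPM of the libraries labelled Rag1-/- control. That difference of -0.70 ± 0.27 had an adjusted p of 0.0504 and was called under 4 other scalings or filters, with log2 fold changes of -0.71 to -0.72, and without TCT mouse 1 (-1.02, adjusted p = 0.00986), while against WT control it was 0.09 (adjusted p = 0.824). TRUC mice (1167, 1116, 1321 and 1364 CPM) and Rag2-/- control mice (1266, 1532 and 954.6 CPM) overlapped, with a log2 fold change of -0.01 and a 95% interval of -0.53 to 0.51. In anti-CD40 mice the level was 1549, 1532 and 1443 CPM (0.34, interval -0.21 to 0.90, adjusted p = 0.383).

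Saa2 counts were small, from 3 to 190 per mouse, and they differed between the untreated groups as well as between colitis and control mice. The WT control mice held 7, 4 and 4 counts (0.534, 0.266 and 0.328 CPM). Rag2-/- control mice reached 3.81, 3.52 and 5.14 CPM without colitis, 10.9-fold above WT control (log2 fold change 3.44 ± 0.41, adjusted p = 2.13e-06). The libraries labelled Rag1-/- control held 2.76, 1.69 and 3.10 CPM (2.71 ± 0.42, adjusted p = 8.24e-05). In these untreated comparisons 3 members were higher in Rag2-/- control (Saa1, Saa2 and Orm1; 3.25% of all genes were higher) and 2 in the libraries labelled Rag1-/- control (Saa2 and Orm1; 4.77%). The Saa1 rise in Rag2-/- control (0.87 ± 0.27, adjusted p = 0.0465) was lost under upper quartile scaling (0.80, adjusted p = 0.0591) and when any of 5 of the 6 mice was left out. The labels give C57BL/6 for the libraries labelled Rag1-/- control, so strain and genotype cannot be told apart there.

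On top of that baseline, TRUC mice had the highest Saa2 levels of the series, 10.3, 16.6, 13.6 and 15.5 CPM, which overlapped with no other group (3.35-fold over Rag2-/- control, 1.75 ± 0.31, adjusted p = 1.04e-04). IL-10 deficiency mice had 3.63, 4.05, 3.35 and 4.50 CPM, 10.1-fold over WT control (3.34 ± 0.40, adjusted p = 1.22e-06). DSS mice had 1.39, 1.98 and 1.84 CPM (2.18 ± 0.43, adjusted p = 4.94e-04). DNBS left Saa2 at 0.418, 0.233 and 0.427 CPM, overlapping the controls (-0.05, 95% interval -1.13 to 1.04).

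The Saa2 calls in the models labelled Rag1-/- rested on the control chosen. TCT mice had 0.349, 0.342 and 1.39 CPM, below all libraries labelled Rag1-/- control (-1.86 ± 0.40, adjusted p = 9.82e-04) but not below WT control, against which the log2 fold change was 0.86 (adjusted p = 0.188). Anti-CD40 mice had 3.19, 6.09 and 5.53 CPM (0.98 ± 0.33, adjusted p = 0.0379), and the difference was 0.25 (adjusted p = 0.611) against the Rag2-/- control. The anti-CD40 call was also lost with edgeR on the 2 groups alone (adjusted p = 0.053) and when any of 4 of the 6 mice was left out (mouse 2 or 3 of the libraries labelled Rag1-/- control, anti-CD40 mouse 7 or 8), with adjusted p values up to 0.184. There were 1257 to 2508 Saa1 counts for each Saa2 count in WT control mice and 67.1 to 114 in TRUC mice.

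Saa3, which in mice is made outside the liver, by macrophages, epithelium and fat, had the largest fold rises of the family. The WT control mice held 3, 7 and 9 counts (0.229, 0.466 and 0.738 CPM). DSS mice had 41.5, 73.8 and 784 CPM, a mean 622-fold over the controls (log2 fold change 9.28 ± 1.50, adjusted p = 7.14e-05). DSS mouse 8 carried most of that mean. Without any 1 of the 6 mice of this comparison the log2 fold change stayed between 6.90 and 9.80, and Saa3 stayed called.

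IL-10 deficiency mice had 59.3, 101 and 49.9 CPM of Saa3 and, in mouse 4, 287 CPM (8.01 ± 1.45, adjusted p = 9.16e-05). TRUC mice had 68.7, 152, 136 and 89.6 CPM against 1.77, 1.22 and 1.74 in the Rag2-/- control (6.14 ± 1.25, adjusted p = 4.36e-04). TCT mice had 128, 53.4 and 95.0 CPM against 0.811, 0.884 and 2.07 in the libraries labelled Rag1-/- control (6.21 ± 1.30, adjusted p = 7.78e-04). None of these groups overlapped its controls. Anti-CD40 mice had lower levels than these, 26.1, 36.8 and 23.8 CPM, and none within the control range (4.54 ± 1.27, adjusted p = 0.0136). That call was lost without mouse 3 of the libraries labelled Rag1-/- control (adjusted p = 0.0623).

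DNBS gave the most uneven Saa3 response, 1.08, 87.6 and 5.29 CPM in mice 11, 14 and 16. The mean rise of 6.02 ± 1.44 (adjusted p = 0.017) became 2.65 without DNBS mouse 14, and the call was lost without that mouse or without any of the 3 WT control mice.

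Lrg1 separated every mouse with colitis from every control mouse. All 9 control mice lay between 2.51 and 4.93 CPM, and all 20 mice with colitis between 9.50 and 1044 CPM. TRUC mice were highest and tight, at 906, 1044, 941 and 879 CPM against 3.36, 3.52 and 4.08 CPM in their controls (257-fold, log2 fold change 8.00 ± 0.65, adjusted p = 9.65e-09). Their range overlapped with no other group. Anti-CD40 mice had 369.6, 679 and 325 CPM (7.40 ± 0.65, adjusted p = 1.21e-07), and IL-10 deficiency mice 551, 843, 403 and 211 CPM (7.14 ± 0.63, adjusted p = 3.25e-08).

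TCT mice had 85.9, 152 and 229.5 CPM of Lrg1 (5.85 ± 0.61, adjusted p = 1.23e-07). DSS mice, which had the highest mean Saa3, had 91.8, 69.9 and 119.5 CPM (4.72 ± 0.58, adjusted p = 4.68e-06). DNBS mice had 9.50, 29.6 and 70.3 CPM (3.35 ± 0.56, adjusted p = 0.00146). Lrg1 stayed called in all 6 models when any 1 mouse was left out.

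Lbp rose most in anti-CD40 and TRUC. Control colon already held 6.81 to 18.1 CPM. Anti-CD40 mice had 192, 224 and 200.2 CPM (20.8-fold, 4.38 ± 0.59, adjusted p = 3.48e-05), and TRUC mice 197, 224.5, 204 and 173 CPM (14.7-fold, 3.88 ± 0.56, adjusted p = 1.32e-05). The levels of these 2 models overlapped each other and no other group. DSS mice reached 82.5, 83.6 and 96.8 CPM (3.24 ± 0.57, adjusted p = 1.58e-04).

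IL-10 deficiency mice spread widely for Lbp, at 71.5, 138, 39.7 and 13.7 CPM (2.82 ± 0.54, adjusted p = 1.73e-04), and their lowest mouse lay only just above the highest WT control at 13.5 CPM. TCT mice had 11.4, 15.4 and 41.4 CPM (1.20 ± 0.55, adjusted p = 0.102) and DNBS mice 13.9, 12.7 and 32.1 CPM (1.07 ± 0.55, adjusted p = 0.23). Both overlapped their controls. DESeq2 on the 2 groups called both (adjusted p = 0.0143 in TCT and 0.0498 in DNBS), and edgeR called TCT without TCT mouse 1 (adjusted p = 0.0487).

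Hp and Saa3 shared their 2 highest models by mean level, DSS and IL-10 deficiency, and their 2 lowest, DNBS and anti-CD40. By median the 2 lowest were the same, but of the 2 highest only TCT was shared. The 2 highest were TRUC (112.8 CPM) and TCT (95.0) for Saa3, and DSS (51.3) and TCT (29.4) for Hp. WT control mice had 1.60, 1.40 and 1.31 CPM. DSS mice had 33.7, 51.3 and 459.6 CPM (125-fold, 6.97 ± 1.01, adjusted p = 2.41e-05), with the high value in the same mouse 8 as for Saa3. Leaving out 1 mouse moved that log2 fold change to between 4.88 and 7.46, still called. IL-10 deficiency mice had 22.9, 30.4, 18.0 and 72.7 CPM (4.63 ± 0.93, adjusted p = 2.72e-04). TCT mice had 43.6, 20.6 and 29.4 CPM (3.04 ± 0.85, adjusted p = 0.00869) and TRUC mice 17.3, 37.1, 26.9 and 12.1 CPM (2.83 ± 0.83, adjusted p = 0.00805). No mouse of these groups overlapped its controls, which had at most 4.39 CPM.

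DNBS mice had 3.23, 31.6 and 5.37 CPM of Hp (3.20 ± 0.95, adjusted p = 0.0443). That rise was 1.56 without DNBS mouse 14, and the call was lost without that mouse, without DNBS mouse 16 or without any WT control mouse. Anti-CD40 mice had 7.14, 14.5 and 7.68 CPM, all above the 3.24, 3.76 and 4.39 CPM of the libraries labelled Rag1-/- control. With the spread estimated over all 9 groups this rise of 1.36 ± 0.86 was not called (adjusted p = 0.266), and with the 2 groups alone it was (adjusted p = 0.00982 by edgeR, 2.38e-04 by DESeq2).

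Ptx3 was called higher in DSS and in no other model. DSS mice had 1.83, 3.69 and 39.5 CPM against 0.534, 0.466 and 0.410 CPM in WT control mice (31.1-fold, 4.96 ± 0.86, adjusted p = 1.46e-04). Without any 1 mouse the log2 fold change stayed between 2.52 and 5.48, still called. DNBS mice had 0.717, 3.02 and 1.11 CPM, all above the controls (1.74, 95% interval -0.10 to 3.58, adjusted p = 0.23). IL-10 deficiency mice had 0.590 to 1.14 CPM, also all above (0.92, interval -0.96 to 2.79). In TRUC, 24 counts over 4 mice stood against 8 over 3 Rag2-/- control mice, a ratio of 2.35 with a 95% counting interval of 1.02 to 6.05, and the test did not call it (adjusted p = 0.393).

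Orm1 was the exception among the members, with no called rise in any model against its own control by edgeR, or by DESeq2 where it gave an adjusted p, and none at an unadjusted p below 0.05. Its counts ran from 1 to 42 per mouse. The libraries labelled Rag1-/- control had 2.59, 2.80 and 3.44 CPM and Rag2-/- control mice 0.885, 1.91 and 3.17 CPM, against 0.534, 0.133 and 0.328 CPM in WT control mice (log2 fold changes 3.14 ± 0.70, adjusted p = 0.0038, and 2.59 ± 0.71, adjusted p = 0.0226). The rise in Rag2-/- control was lost when any of 4 of the 6 mice was left out (WT control mouse 2 or 4, Rag2-/- control mouse 2 or 4), with adjusted p values up to 0.137. The untreated Rag-deficient colon held the highest group means of the series.

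Orm1 fell in anti-CD40 mice, to 0.564, 0.857 and 0.502 CPM (-2.19 ± 0.65, adjusted p = 0.0186), all below the libraries labelled Rag1-/- control. The call was lost when any of 4 of the 6 mice was left out (mouse 4 of those libraries or any anti-CD40 mouse), with adjusted p values up to 0.0609. Against the Rag2-/- control the difference was -1.64 (adjusted p = 0.0721). In TRUC mice it was 0.369, 1.16, 0.275 and 1.06 CPM (-1.48 ± 0.60, adjusted p = 0.0453), overlapping Rag2-/- control mouse 1. The call was lost when any of 4 of the 7 mice was left out (Rag2-/- control mouse 2 or 4, TRUC mouse 2 or 4), with adjusted p values up to 0.261. TCT mice had 2.71, 0.684 and 0.927 CPM (-1.02 ± 0.60, adjusted p = 0.204). That difference was a called fall without TCT mouse 1 (-1.86, adjusted p = 0.0439) and, against WT control, a called rise (2.11, adjusted p = 0.0319). DSS, DNBS and IL-10 deficiency mice overlapped WT control for Orm1, with log2 fold changes of 0.32, -0.89 and 0.12.

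Fat markers, and in part liver markers, differed between the same groups as Orm1. The summed level of 8 adipocyte markers was 114 to 192 CPM in the libraries labelled Rag1-/- control and 59.1 to 187.5 CPM in Rag2-/- control, and it was 35.0 to 68.8 CPM in WT control, 28.3 to 49.5 CPM in TRUC, 20.4 to 46.8 CPM in TCT and 26.7 to 107 CPM in anti-CD40. All 8 were lower in TRUC (23.4% of all genes were lower), 6 in TCT (14%) and 2 in anti-CD40 (10.7%). Alb, which encodes albumin and defines hepatocytes, had 107 to 191 counts in the Rag-deficient controls, 14 to 24 in WT control and 14 to 18 in anti-CD40. The fibrinogen genes Fga, Fgb and Fgg had 6 to 24 counts in each Rag-deficient control and 0 in every WT control mouse. Alb also had 73 to 122 counts in DNBS, where Orm1 was low. Of 11 hepatocyte markers, 7 were lower in anti-CD40, 6 in TCT and 1 in TRUC, and 1 was higher in each of these models. Their summed level went the other way from Orm1, at 200.4 to 216.2 CPM in TRUC against 88.2 to 115.9 in Rag2-/- control and 97.5 to 145 in anti-CD40 against 62.8 to 84.1 in the libraries labelled Rag1-/- control. Most of that sum was Tat, a tyrosine aminotransferase (mean 196.9 CPM in TRUC and 120.5 in anti-CD40). Within groups, Orm1 deviations correlated at 0.15 with the fat sum and 0.20 with the liver sum. Without DSS mouse 8 and DNBS mouse 14 these values were 0.35 and 0.46. The part of fat and liver in the Orm1 result was not tested.

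**Figure D2:**
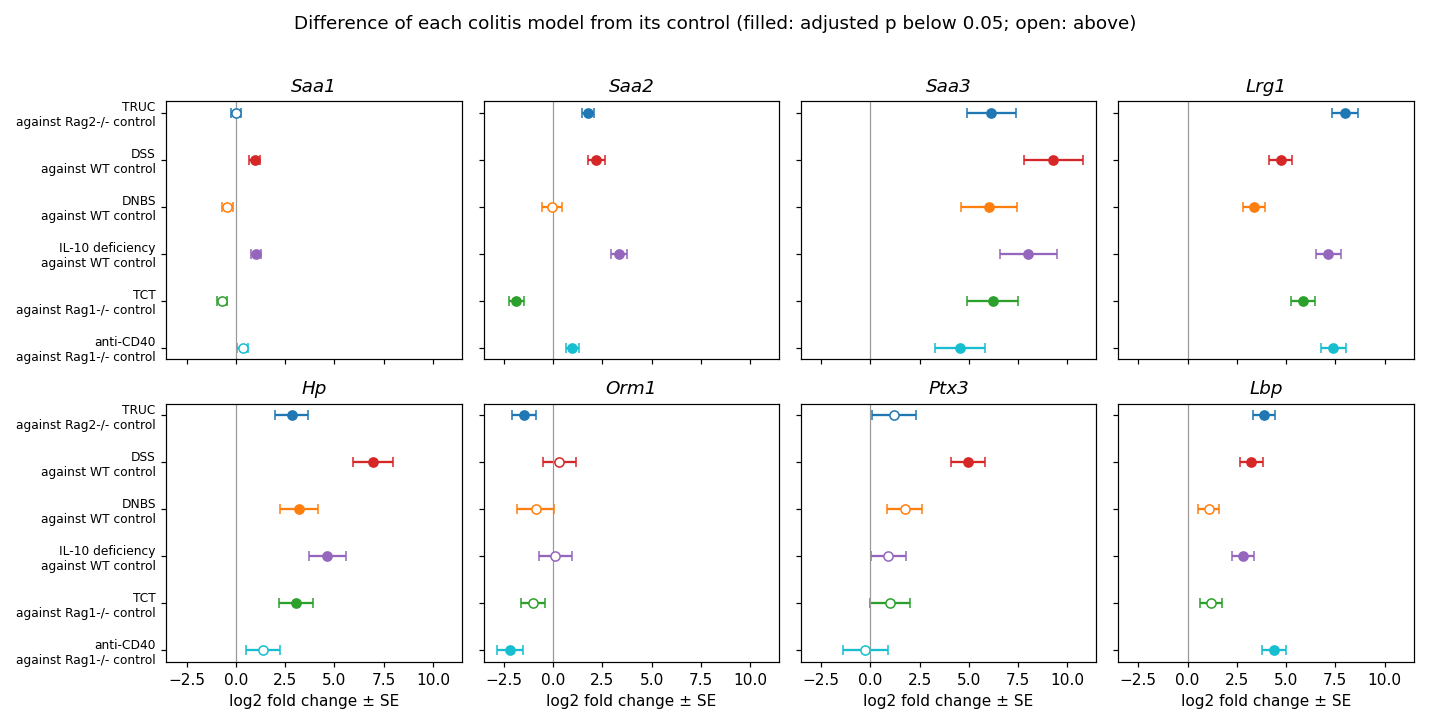
Log2 fold change (horizontal axis, ± SE) of each gene in each colitis model against its control, filled where the adjusted p was below 0.05. Saa3 and Lrg1 are filled in all 6 models and Orm1 has no filled point above 0. The Ptx3 point for TRUC rests on controls with at most 3 counts per mouse and is a fitted value.

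The size of the response differed between models for 7 of the 8 genes by an F test of equal fold changes over the 6 models, a test that 60.5% of all genes passed. Adjusted p values were 1.59e-07 for Saa2, 6.40e-06 for Lrg1, 8.78e-05 for Saa1, 1.26e-04 for Lbp, 2.16e-04 for Ptx3, 6.06e-04 for Hp, 0.0446 for Saa3 and 0.245 for Orm1 (edgeR). The Saa3 difference was the least secure: leaving out 1 mouse moved its adjusted p to between 6.36e-04 and 0.0958, above 0.05 in 22 of 29 cases.

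Ranked by mean level, models did not order alike for the different genes. DSS led for Saa3 (299.9 ± 419.9 CPM, SD), Hp (181.5 ± 241) and Ptx3 (15.01 ± 21.2), each with a range that overlapped the next group. These means rest on DSS mouse 8. By median, DSS (73.8 CPM) lay below TRUC (112.8), TCT (95.0) and IL-10 deficiency (80.2) for Saa3, and was still highest for Hp (51.3) and Ptx3 (3.69). TRUC led for Lrg1 (942 ± 72.1 CPM) and Saa2 (13.98 ± 2.79), each with no overlap with the next. Anti-CD40 led for Lbp (205 ± 16.9 CPM) and Saa1 (1508 ± 56.8), overlapping TRUC for the former and IL-10 deficiency for the latter. By mean, anti-CD40 was the lowest of the 6 models for Saa3 (28.9 ± 6.94 CPM) and Hp (9.77 ± 4.10). By median DNBS was lowest, at 5.29 CPM against 26.1 in anti-CD40 for Saa3, and 5.37 against 7.68 for Hp.

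Mice of the same group also differed along these lines. As deviations of log2 CPM from the group means over 29 mice, Saa3 went with Hp (Pearson r = 0.92), Hp with Ptx3 (0.85) and Lrg1 with Lbp (0.77), whereas Saa3 and Lrg1 did so little (0.21) and Hp and Lbp had a negative value (-0.16). These correlations share libraries and depth and are descriptions. Without DSS mouse 8 and DNBS mouse 14, the 2 mice that stood furthest out for Saa3 in their groups, the values over 27 mice were 0.79 for Saa3 with Hp, 0.64 for Hp with Ptx3 and 0.79 for Lrg1 with Lbp.

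Single mice showed this split in some models and not in others. IL-10 deficiency mouse 4 had the highest Saa3 and Hp of its group (287 and 72.7 CPM) and the lowest Lrg1 and Lbp (211 and 13.7 CPM). TCT mouse 1 was likewise highest for Saa3 and Hp (128 and 43.6 CPM) and lowest for Lrg1 and Lbp (85.9 and 11.4 CPM). DNBS mouse 14 led its group for Saa3 and Hp, and DNBS mouse 16 for Lrg1 and Lbp (70.3 and 32.1 CPM). In the other 3 models 1 mouse was highest of its group for all 4 genes: DSS mouse 8, TRUC mouse 3 and anti-CD40 mouse 7.

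**Figure D3:**
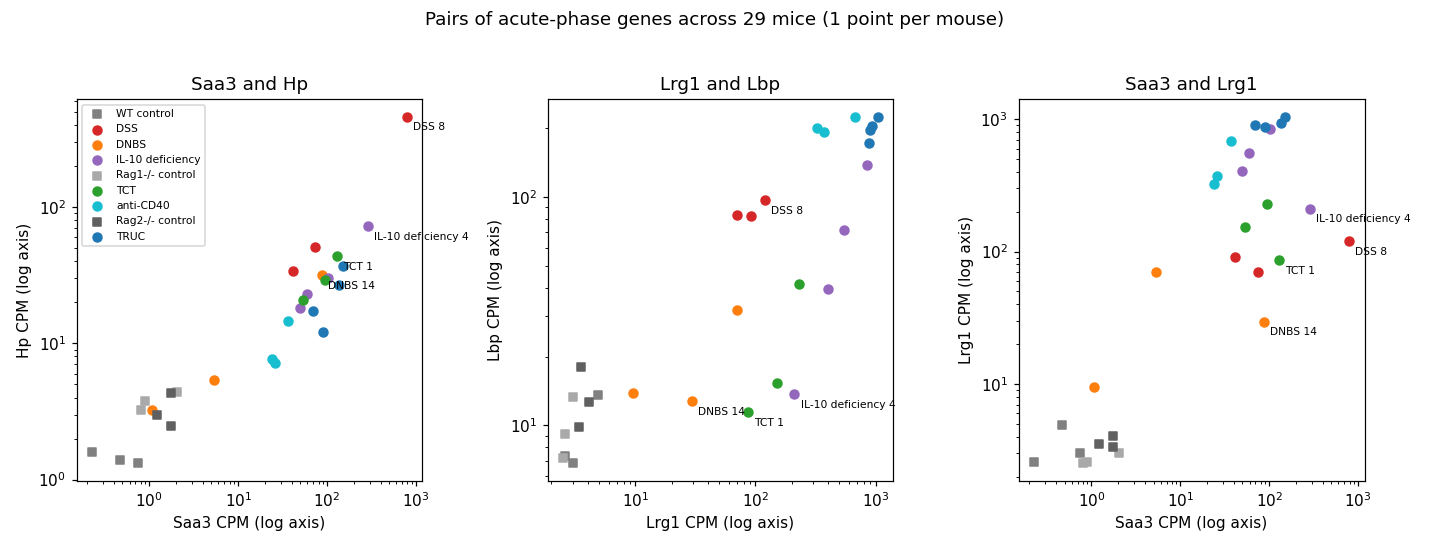
Levels of 3 gene pairs in 29 mice (CPM, log axes; squares are controls, circles colitis models). Saa3 and Hp rise along 1 line. In the panel of Saa3 and Lrg1, the labelled DSS mouse 8, IL-10 deficiency mouse 4, TCT mouse 1 and DNBS mouse 14 sit low for Lrg1 relative to their Saa3.

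Neutrophil markers rose in every model, and Saa3 and Lrg1 were the members called higher in every model. Hp also lay above every control mouse in each model, but was not called in anti-CD40. The summed level of 10 markers was 2.43 to 5.43 CPM in the 9 control mice, with Cxcr2, a chemokine receptor that defines the lineage, at 0 in all 9. It was 54.8 to 170 CPM in DNBS, 108 to 320 in anti-CD40, 153 to 383 in TCT, 212 to 648 in IL-10 deficiency, 921 to 1592 in TRUC, and 234, 387 and 2313 CPM in DSS. The 2313 CPM belonged to DSS mouse 8. Of the 10 markers, all 10 were higher in IL-10 deficiency, 9 in DSS, 8 each in TRUC, DNBS and TCT, and 5 in anti-CD40. Of all genes, 27.2% were higher in IL-10 deficiency, 17.7% in DSS, 22.4% in TRUC, 3.95% in DNBS, 16.1% in TCT and 10.9% in anti-CD40. The same shares stand beside the counts of the other marker lists below.

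Within groups, the deviations of the summed neutrophil markers correlated at 0.64 with Saa3, 0.73 with Hp and 0.77 with Ptx3, and at 0.22, 0.35 and 0.42 without DSS mouse 8 and DNBS mouse 14. For Lrg1 and Lbp the values were 0.53 and 0.44, and 0.62 and 0.70 without them. Without those 2 mice, the summed colonocyte markers correlated at 0.72 with Saa3, 0.61 with Hp and -0.51 with Lbp, and the summed hepatocyte markers, mostly Tat, at 0.60, 0.66 and -0.55. With all 29 mice these values were 0.19, 0.14 and -0.48 for colonocytes and 0.16, 0.15 and -0.54 for hepatocytes. IL-10 deficiency mouse 4 had 246.5 CPM of neutrophil markers, within its group's range, and the highest colonocyte sum of the series (21665.3 CPM). Its hepatocyte sum (205.6 CPM) was the highest of its group. That mouse stayed in the correlations without DSS mouse 8 and DNBS mouse 14, and its weight in them was not tested. DNBS mouse 14 had the highest fibroblast sum (2798.3 CPM over 7 genes). Of 7 macrophage markers, 7 were higher in TCT, 6 in DSS, 6 in TRUC, 3 in IL-10 deficiency (with 1 lower), 2 in anti-CD40 and 1 in DNBS. Of 7 fibroblast markers, 3 were higher in DSS, 2 in DNBS and 2 in TCT, while 3 were lower in IL-10 deficiency, 2 in anti-CD40 and 1 in TRUC. All 5 endothelial markers were higher in DSS and 2 in DNBS. Of the 9 colonocyte markers, 6 were higher and 1 was lower in IL-10 deficiency, 3 were higher and 3 lower in TRUC, and at most 3 of the 9 moved in each other model. The part of any cell type in the members' levels was not tested.

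By likeness of log2 CPM over the 29 mice, the genes closest to Lrg1 were Ripk3 (Pearson r = 0.975), Mfsd2a (0.967) and Tmem184c (0.961). Those closest to Saa3 were Lcn2, another acute-phase gene that encodes a siderophore-binding lipocalin (0.938), the neutrophil chemokine Cxcl2 (0.936) and Il4ra (0.936). Hp was most like Fpr1, a formyl peptide receptor of neutrophils (0.954), Wfdc21 (0.946) and Ifitm1 (0.937), and Lbp like Stom (0.913), Cd14 (0.900) and Gm15987 (0.888). Cd14 encodes the receptor to which the Lbp protein hands lipopolysaccharide.

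Ptx3 was closest to Lmo2 (0.906), Snx18 (0.898) and Ifitm6 (0.893), and Saa2 to Atp8a1 (0.897), Gpatch11 (0.885) and Blnk (0.860). Saa1 was closest to Rdh9 (0.875), Neu1 (0.844) and Oas1g (0.828). Orm1 had the weakest neighbours, Slc15a4 (0.778), Csrnp2 (0.711) and Gm38329 (0.702).

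Cytokines that induce acute-phase genes rose in most models. Of 9 measured, 9 were higher in DSS, 7 in TRUC, 7 in IL-10 deficiency, 5 in TCT, 3 in anti-CD40 and 1 in DNBS, and none was lower. Of all genes, 17.7% were higher in DSS, 22.4% in TRUC, 27.2% in IL-10 deficiency, 16.1% in TCT, 10.9% in anti-CD40 and 3.95% in DNBS. The same shares stand beside the counts of receptor, signalling and partner genes below. Il1b, which encodes IL-1β, was called in all 6, with a log2 fold change of 8.47 ± 1.07 in DSS, 6.00 ± 1.02 in TRUC, 5.07 ± 0.97 in IL-10 deficiency, 5.01 ± 0.99 in TCT, 3.66 ± 0.98 in DNBS and 2.94 ± 1.00 in anti-CD40. Tnf was called in 5, all but DNBS, with log2 fold changes of 3.52 to 5.89. The DSS values of both were the largest of the 6 and rested on DSS mouse 8. Il1b was 48.4, 84.2 and 1291 CPM in DSS mice, and the median of Tnf there was 21.97 CPM (highest mouse 187 CPM), below the medians in TCT (40.7), TRUC (40.0) and IL-10 deficiency (33.5).

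Il6 was called in DSS only, at 15.6 CPM on average with 12 to 565 counts per mouse, against at most 1 count in each WT control mouse. That mean rested on 1 mouse at 45.2 CPM, and the DSS median was 0.821 CPM, beside 0.658 in TRUC. Il22 had 0 counts in every WT control mouse and 10 to 633 in DSS mice, and was called in DSS and TRUC (16 to 34 counts, against at most 2 in the controls). Its median was 1.89 CPM in DSS, where the highest mouse had 50.6 CPM, and 2.04 CPM in TRUC. In IL-10 deficiency, DNBS, TCT and anti-CD40 mice Il22 had 0 to 25 counts.

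**Figure D4:**
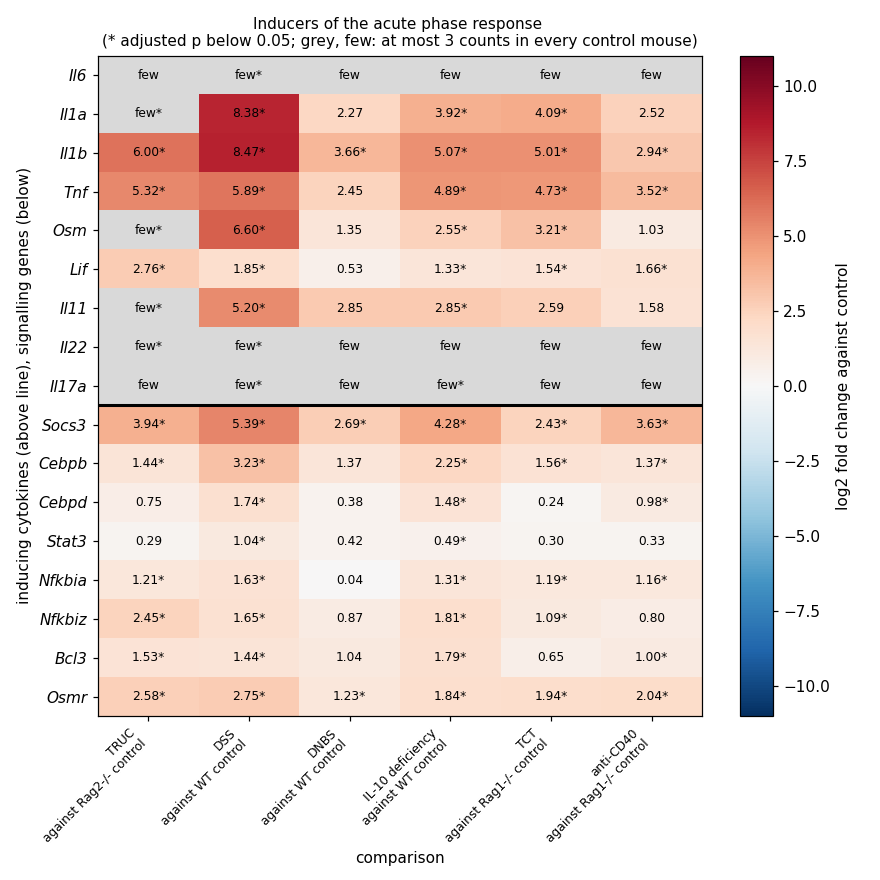
Log2 fold change of 9 inducing cytokines (above the line) and 8 signalling genes (below) in each model against its control, with an asterisk where the adjusted p was below 0.05 and grey cells where every control mouse had at most 3 counts. Il1b, Socs3 and Osmr carry an asterisk in all 6 columns, and the DSS column has one in every row.

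Downstream of these cytokines, of 17 receptor and signalling genes 14 were higher in DSS, 11 in IL-10 deficiency, 8 in TRUC, 7 in anti-CD40, 6 in TCT and 2 in DNBS, and lower were 1 in DSS, 3 in IL-10 deficiency, 1 in anti-CD40 and 1 in DNBS. Socs3, the STAT3-induced feedback inhibitor, was higher in all 6, from 2.43 ± 0.60 in TCT to 5.39 ± 0.69 in DSS. Osmr, the oncostatin M receptor, was also higher in all 6, from 1.23 ± 0.32 in DNBS to 2.75 ± 0.33 in DSS. Cebpb, a transcription factor of acute-phase promoters, was higher in 5, with 3.23 ± 0.51 in DSS and 1.37 ± 0.50 (adjusted p = 0.0926) in DNBS. The DSS value rested on 1 mouse at 172 CPM. The DSS median of 26.3 CPM lay below IL-10 deficiency (38.2), TCT (31.9) and TRUC (30.9). Stat3 itself was called in DSS (1.04) and IL-10 deficiency (0.49).

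Of 12 receptors and partners of the secreted proteins, 8 were higher in DSS, 7 in IL-10 deficiency, 6 in TCT, 6 in anti-CD40, 5 in TRUC and 1 in DNBS, while 2 were lower in IL-10 deficiency, 2 in anti-CD40 and 1 in TRUC. Fpr2, a receptor for serum amyloid A on neutrophils and macrophages, was called in 5 models, with 5.31 ± 0.86 in TCT, 3.98 ± 0.85 in TRUC and 3.70 ± 0.87 in anti-CD40. Cd14 was called where Lbp was, in TRUC (2.90 ± 0.46), DSS (2.68 ± 0.47), anti-CD40 (2.45 ± 0.47) and IL-10 deficiency (2.21 ± 0.45). In TCT its difference was 1.07 ± 0.45 (adjusted p = 0.0741), and in DNBS 0.83 ± 0.45 (adjusted p = 0.259). Cd163, the macrophage receptor for haptoglobin bound to haemoglobin, was higher in DSS (1.37) and TCT (1.57) and lower in IL-10 deficiency (-2.99).

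Among 24 further acute-phase genes, 17 had enough counts to be tested, and Crp, Apcs, Orm2, Orm3, Hamp2, Mbl2 and Mt2 did not. Of the 17, 11 were higher in DSS (17.7% of all genes were higher), 8 in IL-10 deficiency (27.2%) and 8 in TCT (16.1%). The counts were 6 in anti-CD40 (10.9%), 5 in TRUC (22.4%) and 2 in DNBS (3.95%). Serpina3n, an antichymotrypsin, was called in all 6, from 2.03 ± 0.39 in IL-10 deficiency to 4.78 ± 0.45 in DSS and 4.74 ± 0.46 in TCT. C3, the central complement component, was called in 5, with its largest rise in TCT (3.92 ± 0.54), and Lcn2 in 5, with its largest in DSS (6.47 ± 0.92). The Lcn2 mean in DSS rested on 1 mouse at 375 CPM. Its median there was 40.0 CPM, below TRUC (79.5) and IL-10 deficiency (53.5). In DNBS the adjusted p was 0.0726 for C3 and 0.0507 for Lcn2. Saa4, the constitutive family member, had 47 to 69 counts in TRUC mice against 3 to 6 in their controls (3.82 ± 0.61, adjusted p = 4.73e-05).

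Lower were 5 of the 17 in TCT (14% of all genes were lower), 4 in anti-CD40 (10.7%) and 1 in TRUC (23.4%). In both TCT and anti-CD40 these included the fibrinogen genes Fga, Fgb and Fgg and Hpx, which encodes the haem carrier hemopexin. The fibrinogen genes are also on the hepatocyte list above, and their control counts moved with Alb.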

How the data were processed

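Colon RNA of 29 mice in 9 groups was sequenced as paired-end poly(A) libraries. The authors deposited raw counts, whole numbers of reads per gene and mouse without normalization. The submitters' processing notes name Trimmomatic, HISAT2, HTSeq and GRCm38, and versions and use of strand are not given in the sources used here. The 92 spike-in rows, all at 0, were left out.

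Counts of genes with a mean of at least 3 over all mice (18616) were scaled by TMM and fitted with edgeR 4.0.16 (limma 3.58.1, R 4.3.3), with 1 quasi-likelihood model for all 9 groups and no covariate. SE was taken as the absolute log2 fold change over the root of the F statistic, and intervals are 95%. Adjusted p values are Benjamini-Hochberg over all genes tested. The script was tested on simulated data. No mice of 1 group had identical or near-identical columns. Labels do not say that mice came from separate cages or litters, so p values measure the spread between these animals. Counting intervals cover counting error only.

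All 8 members are named, with genes of 4 pathway lists, 7 marker lists (colonocytes, hepatocytes, adipocytes, neutrophils, macrophages, fibroblasts, endothelium) and the 3 genes most like each member. Members and lists were chosen with earlier results of these data known. Lengths, shared 50-base windows and positions came from GENCODE M21, promoters from RefSeq. Alternatives were other scalings (RLE, upper quartile), filters, DESeq2 1.42.0, 2 groups alone, a threshold of 0.01, other control groups, a replicate block, Saa1 and Saa2 counts summed, and each mouse left out. Figures used matplotlib under Python.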

Additional observations from a re-analysis of the deposited data

Results flagged for a closer look

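Differences between the 6 colitis models were found for 7 genes by the F test of equal fold changes, with Benjamini-Hochberg adjustment over all genes (edgeR). The adjusted p was 8.78e-05 for Saa1, where log2 fold changes ran from -0.70 (TCT) to 1.04 (IL-10 deficiency). It was 1.59e-07 for Saa2, from -1.86 (TCT) to 3.34 (IL-10 deficiency), and 0.0446 for Saa3, from 4.54 in anti-CD40 to 9.28 in DSS. For Lrg1 it was 6.40e-06, from 3.35 in DNBS to 8.00 in TRUC, and for Hp 6.06e-04, from 1.36 in anti-CD40 to 6.97 in DSS. For Ptx3 it was 2.16e-04, from -0.26 in anti-CD40 to 4.96 in DSS, and for Lbp 1.26e-04, from 1.07 in DNBS to 4.38 in anti-CD40. Among 16 tests of the groups of 4 mice, none found a mouse apart from the others by Dixon's criterion, and groups of 3 were not tested.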

How the results depend on the processing

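Of 501 member values under other settings, 465 kept their side of the threshold, 15 lost their call and 19 gained one. Another 2 changed direction with a call in either fit. The 465 include values that changed direction without a call in either fit, such as Saa1 in TCT (0.09 against WT control). Both changes that involved a call came with WT control in place of the libraries labelled Rag1-/- control for TCT, where Saa2 was 0.86 and Orm1 2.11. With other control groups for TCT and anti-CD40 the F test for Orm1 had an adjusted p of 0.00698. At a threshold of 0.01 the members called higher were 1 in DNBS, 2 in anti-CD40 and 1 in Rag2-/- control against WT control. With the 2 groups alone, edgeR called 1 in DNBS, 5 in Rag2-/- control and 4 in the libraries labelled Rag1-/- control, and DESeq2 called 5 and 4 in the latter 2, 4 in DNBS, 4 in TCT and 6 in anti-CD40 (Lbp added in DNBS and TCT, Saa1, with an adjusted p of 0.0456, and Hp in anti-CD40). The cause was not tested.

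Leaving out 1 mouse changed no direction of a called value in 400 refits of a value, and 31 lost their call. The count of members called higher ran from 1 to 3 in DNBS (1 without any WT control mouse or DNBS mouse 14), from 2 to 4 in anti-CD40 (2 without mouse 3 of the libraries labelled Rag1-/- control) and from 1 to 2 in Rag2-/- control against WT control. The F test for Saa3 had an adjusted p between 6.36e-04 and 0.0958. Upper quartile scaling moved the median log2 fold change of all genes to -0.14 in TRUC and -0.18 in IL-10 deficiency, and the genes called higher and lower in IL-10 deficiency from 5058 and 4858 to 3854 and 6187, in DNBS from 736 and 412 to 542 and 520, and in the libraries labelled Rag1-/- control from 888 and 1150 to 621 and 1462.

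Replicate numbers shared between TRUC and Rag2-/- control and between IL-10 deficiency and WT control did not mark mice that deviated together (correlations -0.052 to 0.056). With a replicate block over the mice with shared numbers, 5 members were called higher in TRUC and 6 in IL-10 deficiency, and the block changed no other call. Without the block, chosen after seeing the data, the same mice gave the same counts. DESeq2 gave no adjusted p for Saa2 and Orm1 in DNBS and Ptx3 in anti-CD40. Ptx3 in all control mice, and Orm1 and Saa2 in WT control mice, rested on fewer than 10 counts per mouse, so small differences were not detectable there.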
